A study of Rattus norvegicus with 9 samples.

Results

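The genes described here are 10 genes tied to the zone of the liver lobule that surrounds the central vein: the hepatocyte genes Glul, Oat, Slc1a2, Rhbg, Lect2 and Tbx3, the Wnt target genes Axin2 and Lgr5, and the secreted signals Rspo3 and Wnt2. They were taken by gene symbol from the deposited tables, in which each symbol named 1 of 32883 gene rows. RNA sequencing was performed on whole liver of male Sprague-Dawley rats, which were 8 to 11 weeks old when obtained, with 3 livers in each of 3 groups. Normal livers came from rats for which the labels give no operation, endotoxin or circuit. Empty livers came from rats with acute-on-chronic liver failure (ACLF), produced by ligating the bile duct and injecting endotoxin (lipopolysaccharide, LPS, 0.25 mg/kg) 21 days later, whose blood was passed through an empty circuit for 2 h starting 1 h after LPS. UTOpiA livers came from rats treated in the same way except that the circuit held a granulocyte and monocyte adsorption column in tandem with encapsulated human hepatocyte-like cells derived from induced pluripotent stem cells. ACLF livers were collected 24 h after LPS. Ligation, LPS and the circuit cannot be told apart in a comparison with normal livers, nor can the column and the cells in a comparison of UTOpiA with Empty. Total counts ranged from 14241172 to 17321677 per library.

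Hepatocytes change their enzymes along the path of blood from the portal tract to the central vein. Endothelial cells at the central vein secrete Wnt ligands and the Wnt amplifier R-spondin 3, and through beta-catenin and the TCF/LEF factors they keep neighbouring hepatocytes in a pericentral state. The innermost hepatocytes take up the ammonia that escaped the periportal urea cycle and fix it into glutamine, using glutamate made there by ornithine aminotransferase or imported by a glutamate transporter. Bulk RNA carries no position in the lobule, so the zone of each gene is background and was not measured.

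A gene was called changed when edgeR's quasi-likelihood test gave a Benjamini-Hochberg adjusted p below 0.05 over the 14089 genes tested together with a fold change above 2. Of the 10 genes, 9 could be tested, and Lgr5 had too few reads. The count filter asked for about 10 reads in at least 3 libraries, and Slc1a2 met it in the normal livers 1 and 2 only, so it was tested through its ACLF levels. Against normal livers, Slc1a2 was called higher and Oat was called lower in both ACLF groups, and the other 7 tested genes were not called in either. Of all genes tested 31.8% were called for Empty against Normal (20.7% higher and 11.1% lower) and 25.0% for UTOpiA against Normal (18.2% higher and 6.81% lower), so that 2 calls in 9 genes is no more than the share over all genes. The median log2 fold change over the 9 genes was 0.07 in Empty and 0.40 in UTOpiA livers, beside 0.04 and 0.05 over all genes tested. Between UTOpiA and Empty livers edgeR called none of the 9 genes, where 0% of all genes were called, and none had an unadjusted p below 0.05, beside 10.3% of all genes. DESeq2 and limma called none of them either, although DESeq2 called 125 genes overall.

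**Figure D1:**
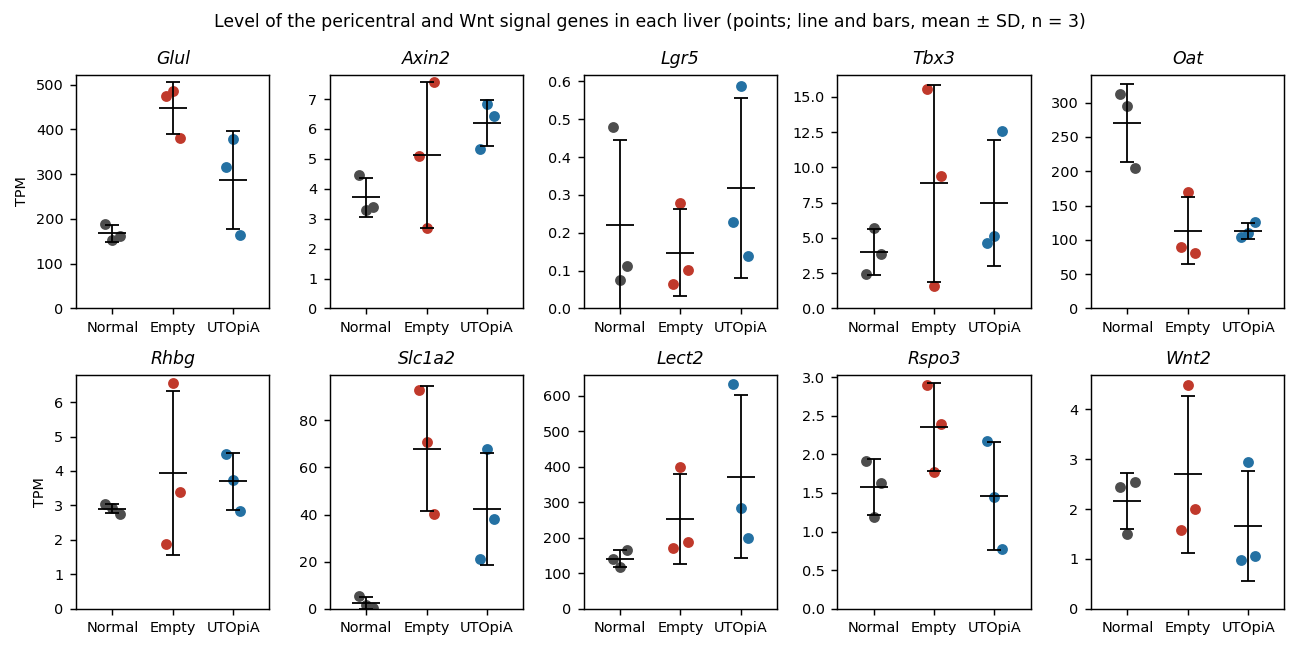
Level of each of the 10 genes in TPM (vertical axes, each starting at 0) in the 3 Normal, 3 Empty and 3 UTOpiA livers. Points are livers, and horizontal lines and bars are the mean and SD, cut at 0 for Lgr5 and Slc1a2 in normal livers. Slc1a2 was above every normal liver and Oat below every normal liver in all 6 ACLF livers, while Rhbg, Wnt2, Rspo3, Tbx3 and Lgr5 overlapped.

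Slc1a2 encodes a high-affinity glutamate transporter found in pericentral hepatocytes of the healthy liver. Its level in TPM, a count divided by gene length and scaled to the same total in every library, was 5.24, 1.47 and 0.395 in the normal livers. In Empty livers they were 93.0, 70.9 and 40.0 TPM, and in UTOpiA livers 21.2, 68.0 and 38.0 TPM. Every ACLF liver lay above every normal liver, and the Empty and UTOpiA livers overlapped. The normal values rest on 37, 11 and 3 reads, whereas the ACLF livers held 157 to 818 reads. Slc1a2 was 20.6-fold higher in Empty than in normal livers (95% interval 6.24 to 67.9; log2 fold change 4.36 ± 0.76 SE, edgeR adjusted p = 0.00195). In UTOpiA livers it was 14.2-fold higher than normal (interval 4.35 to 46.2; log2 fold change 3.83 ± 0.75 SE, edgeR adjusted p = 0.00475). Normal replicate 1 had the highest of the normal levels, and without it the log2 fold changes were 5.68 and 5.15. They were 5.32 and 4.57 with limma on log2(TPM + 0.1). The log2 difference between UTOpiA and Empty was -0.54 with a 95% interval from -1.93 to 0.85. The gene model counted as Slc1a2 spans 24893 bases (chr3:92640752-92665644, plus strand, build rn6), while RefSeq lists start sites 47838 bases apart in another rat build, so these counts do not tell which start was used.

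Oat encodes ornithine aminotransferase, which turns ornithine into a precursor of glutamate in the cells that make glutamine. Its levels were 312, 294 and 205 TPM in the normal livers. They were 89.9, 169.7 and 80.8 TPM in Empty livers and 104, 109 and 126 TPM in UTOpiA livers. All 6 ACLF livers lay below all 3 normal livers, and the UTOpiA values fell inside the range of the Empty values. Oat fell by 1.76 on the log2 scale in Empty livers (SE 0.34, edgeR adjusted p = 0.00273), a level 3.39-fold lower than normal. The decrease in UTOpiA livers was 2.90-fold (log2 fold change -1.54 ± 0.34 SE, edgeR adjusted p = 0.00698). UTOpiA and Empty differed by 0.23 on the log2 scale, with an interval from -0.53 to 0.98. Empty replicate 2 held the highest Oat level of the ACLF livers.

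Glul encodes glutamine synthetase, the classical marker of the last rows of hepatocytes before the central vein. Normal livers had 188, 152 and 162 TPM. Empty livers had 475, 485 and 380.4 TPM, all above the normal livers. UTOpiA livers had 317, 378 and 165 TPM, so that UTOpiA replicate 3 lay within the normal range and the other two lay between the normal and the Empty livers. Glul in Empty livers was 1.87-fold higher than normal in edgeR (log2 fold change 0.90 ± 0.24 SE, 95% interval 0.36 to 1.45, adjusted p = 0.0126), which passed the p threshold and not the 2-fold threshold. In UTOpiA livers the log2 fold change against normal was 0.40 ± 0.24 SE (edgeR adjusted p = 0.211). UTOpiA livers lay below all Empty livers in TPM, as did 8.62% of all genes tested, but the groups overlapped in CPM, the counts scaled by TMM-adjusted library totals. The log2 difference between UTOpiA and Empty was -0.50, with an interval from -1.04 to 0.04 and an edgeR adjusted p of 0.509. Albumin transcripts made up 13.3% to 14.9% of the normal libraries and 1.54% to 3.91% of the ACLF libraries, and their part in the TPM difference was not tested. In limma fits of log2(TPM + 1) the median of all genes in Empty against Normal stood 0.39 higher than in edgeR, and on that scale Glul was called higher in Empty livers.

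**Figure D2:**
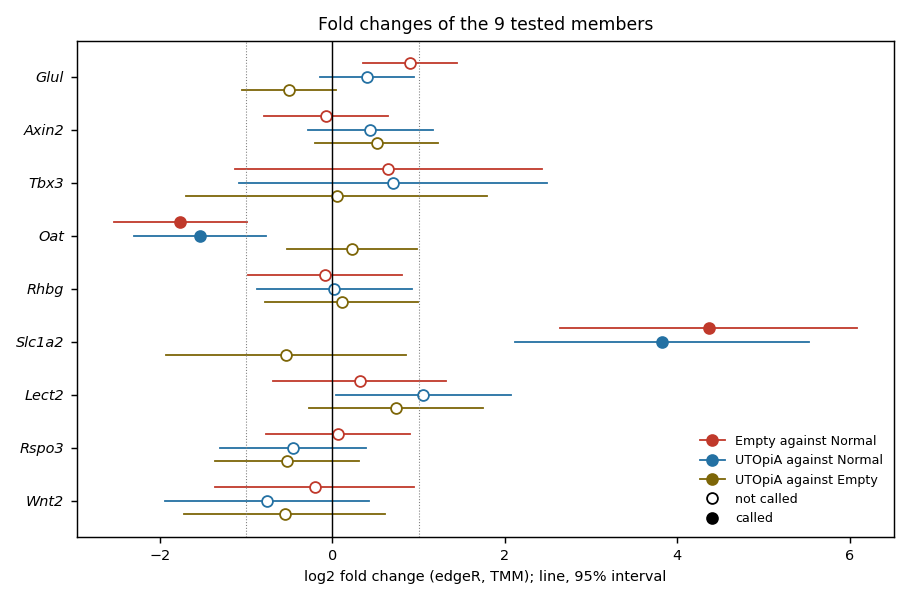
Log2 fold change (horizontal axis) of the 9 tested genes in 3 comparisons, with 95% intervals from edgeR; filled points were called and dotted lines mark a 2-fold change. Only Slc1a2 and Oat are filled, in both comparisons with normal livers, and every interval for UTOpiA against Empty crosses 0.

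Rhbg encodes an ammonium transporter of the Rh family found on pericentral hepatocytes. It was measured at 3.04, 2.91 and 2.76 TPM in normal livers, 1.87, 6.54 and 3.38 TPM in Empty livers, and 4.50, 3.75 and 2.84 TPM in UTOpiA livers. The groups overlapped, and the Empty livers alone spanned the values of all other livers. The log2 fold change was -0.09 in Empty and 0.02 in UTOpiA livers against normal (edgeR adjusted p = 0.872 and 0.972). Leaving out 1 library at a time moved the first value between -0.70, without Empty replicate 2, and 0.22.

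Lect2 encodes a hepatocyte-secreted protein that is a target of beta-catenin in the liver. Its levels were 141, 118 and 165 TPM in normal livers and 169.6, 399 and 188 TPM in Empty livers. UTOpiA livers had 633, 285 and 198 TPM. All ACLF livers were above the normal livers in TPM, led by UTOpiA replicate 1 and Empty replicate 2. With TMM scaling the log2 fold change against normal was 0.32 ± 0.44 SE in Empty livers (edgeR adjusted p = 0.581). It was 1.05 ± 0.45 SE in UTOpiA livers, a 2.08-fold difference that did not pass the test (edgeR adjusted p = 0.0902). DESeq2 called this difference, and so did edgeR without Empty replicate 2 (adjusted p range over the alternatives 0.0448 to 0.367). Without UTOpiA replicate 1, the liver with the highest level, the log2 fold change against normal was 0.44.

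Tbx3 encodes a T-box transcription factor downstream of beta-catenin in the liver. It was at 2.44, 5.68 and 3.88 TPM in normal livers, 15.6, 1.62 and 9.40 TPM in Empty livers, and 4.65, 5.13 and 12.6 TPM in UTOpiA livers. Empty replicate 2 had the lowest level of all 9 livers and Empty replicate 1 the highest. The log2 fold changes of 0.65 ± 0.78 SE in Empty and 0.70 ± 0.79 SE in UTOpiA livers did not pass the test (edgeR adjusted p = 0.520 and 0.508). Without Empty replicate 1 the Empty value was -0.14, and without UTOpiA replicate 3 the UTOpiA value was -0.18.

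Axin2 and Lgr5 are read as outputs of Wnt signalling: Axin2 is a scaffold of the complex that degrades beta-catenin, and Lgr5 is a receptor for R-spondins. Axin2 was at 4.45, 3.30 and 3.38 TPM in normal livers, 5.08, 2.69 and 7.57 TPM in Empty livers, and 5.34, 6.85 and 6.42 TPM in UTOpiA livers. In TPM the UTOpiA livers lay above the normal livers, whereas the Empty livers spread to either side of both. In edgeR the log2 fold change was -0.07 ± 0.32 SE in Empty and 0.44 ± 0.32 SE in UTOpiA livers (adjusted p = 0.869 and 0.300), and in CPM the UTOpiA and normal livers overlapped. The sign of the Empty value turned with the scaling, to 0.30 in limma on log2(TPM + 1). Lgr5 was close to the limit of detection, with 12, 2 and 3 reads in normal livers, 2, 8 and 3 in Empty livers and 6, 17 and 4 in UTOpiA livers. Its TPM ranged from 0.0641 to 0.589 over the 9 livers and the groups overlapped, so that no difference was detectable at this depth.

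The sequence before the start site of these genes was searched for the TCF/LEF core words CTTTGAA and CTTTGAT on either strand; matches on opposite strands can overlap, and overlapping matches were counted separately. RefSeq promoter sequences of rat build GRCr8 held 10 start sites for 8 of the 10 genes, with 250 bases before each start. A word was present at 4 of these start sites, in Axin2, Glul, Slc1a2 and Lect2, and in 7.58% of 33469 rat promoters. Axin2 carried both words, 232 and 132 bases before the start, and 0.478% of promoters held 2 or more. The Axin2 promoter is shown as the one with both words, and one start site each of Glul, Slc1a2 and Oat is shown as the genes of the glutamine pathway whose levels are set out above. Capitals mark the words, and the sequences read 5′ to 3′ along the strand of the gene.
Axin2, chr10:94398535-94398784, plus strand: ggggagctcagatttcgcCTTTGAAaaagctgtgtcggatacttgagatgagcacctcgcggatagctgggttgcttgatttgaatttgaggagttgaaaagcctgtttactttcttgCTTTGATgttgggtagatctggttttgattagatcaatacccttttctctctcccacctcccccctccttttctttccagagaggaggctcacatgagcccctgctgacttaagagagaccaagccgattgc
Glul, first start site, chr13:68519250-68519499, plus strand: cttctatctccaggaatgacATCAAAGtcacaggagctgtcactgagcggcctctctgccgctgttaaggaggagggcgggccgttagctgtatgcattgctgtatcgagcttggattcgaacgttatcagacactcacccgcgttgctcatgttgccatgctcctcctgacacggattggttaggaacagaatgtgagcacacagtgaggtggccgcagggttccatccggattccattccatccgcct
Slc1a2, second start site, chr3:109507697-109507946, plus strand: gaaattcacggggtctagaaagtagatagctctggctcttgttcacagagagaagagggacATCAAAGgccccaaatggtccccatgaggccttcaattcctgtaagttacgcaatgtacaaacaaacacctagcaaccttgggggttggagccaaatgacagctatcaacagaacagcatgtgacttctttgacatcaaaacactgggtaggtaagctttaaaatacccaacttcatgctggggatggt
Oat, chr1:196797755-196798004, minus strand: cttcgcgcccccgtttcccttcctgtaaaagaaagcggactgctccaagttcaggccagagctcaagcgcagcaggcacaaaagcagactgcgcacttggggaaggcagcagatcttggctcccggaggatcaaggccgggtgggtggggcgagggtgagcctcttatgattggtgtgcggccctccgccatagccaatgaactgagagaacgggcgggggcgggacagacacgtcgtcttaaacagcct
Of these, Slc1a2 rose, Oat fell, and Axin2 was not called in any comparison. The words lay 230 bases before the start in Glul and 189 bases before it in Slc1a2, and the other start sites of both genes held neither word, nor did that of Oat. The start sites of Glul lie 56566 bases apart in build GRCr8, while the gene model counted spans 9178 bases in rn6, so for Glul as for Slc1a2 the counts do not tell which start was used.

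Rspo3 encodes R-spondin 3, which stabilises Wnt receptors. Its levels were 1.91, 1.19 and 1.62 TPM in normal livers, 2.90, 1.77 and 2.39 TPM in Empty livers, and 2.17, 1.45 and 0.777 TPM in UTOpiA livers. The groups overlapped, with log2 fold changes against normal of 0.07 in Empty and -0.46 in UTOpiA livers (edgeR adjusted p = 0.896 and 0.361). Wnt2 encodes a Wnt ligand made by liver endothelium. It was at 2.44, 1.50 and 2.53 TPM in normal livers, 1.59, 4.49 and 2.00 TPM in Empty livers, and 0.985, 2.94 and 1.06 TPM in UTOpiA livers. These groups overlapped too, with log2 fold changes of -0.20 in Empty and -0.76 in UTOpiA livers (edgeR adjusted p = 0.767 and 0.278). Without Empty replicate 2 the Empty value was -0.81. Both genes rest on few reads, 22 to 89 per library for Rspo3 and 11 to 55 for Wnt2. Their 95% intervals in UTOpiA against Normal, -1.31 to 0.39 for Rspo3 and -1.94 to 0.43 for Wnt2, include a 2-fold decrease. In a list of 6 genes of central vein endothelium that holds both, Thbd (thrombomodulin) rose in Empty livers, while in UTOpiA livers Wnt9b rose and Kit fell. The Thbd call was lost without any 1 of the normal livers and without Empty replicate 2, and the Kit call with limma and with upper-quartile scaling. Of 13 general liver endothelial markers tested, 2 rose and 2 fell in Empty livers, beside 20.7% and 11.1% of all genes. In UTOpiA livers 1 rose and 1 fell, beside 18.2% and 6.81% of all genes. The same shares apply to the 6 central vein genes, and neither count is evidence about endothelial genes as a group. In whole liver, fewer cells of a type and less RNA per cell cannot be told apart.

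In TPM the Empty livers lay wholly above the normal livers for 3 of the 10 genes (Glul, Slc1a2 and Lect2) and wholly below for Oat. Among all genes tested 53.4% lay above and 12.8% below. UTOpiA livers lay above normal for Axin2, Slc1a2 and Lect2 and below for Oat, beside 39.0% and 13.4% of all genes. UTOpiA livers lay above Empty livers for none of the 10 genes and below for Glul, beside 2.43% and 8.62% of all genes. An exact permutation test on 3 against 3 livers cannot give a p under 0.1, and each of these separations gave that value. The order of the mean levels differed between groups. In normal livers Oat was highest at 270.6 ± 57.3 TPM (SD, n = 3 here and below), followed by Glul (168 ± 18.6 SD) and Lect2 (141 ± 23.6 SD), whose ranges overlapped. In Empty livers Glul was highest (447 ± 57.8 SD), followed by Lect2 (252 ± 127 SD), Oat (113 ± 48.9 SD) and Slc1a2 (68.0 ± 26.6 SD), each overlapping the gene above it. In UTOpiA livers Lect2 (372 ± 229.8 SD) and Glul (287 ± 109.7 SD) overlapped, and Oat (113 ± 11.3 SD) and Slc1a2 (42.4 ± 23.7 SD) followed without overlap.

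Ratios within a library do not depend on the scaling between libraries. The 5 ratios computed were chosen after the levels had been seen, and they are a description without a test. Glul to Oat, in TPM, was 0.516 to 0.792 in normal livers, 2.86 to 5.28 in Empty livers and 1.31 to 3.46 in UTOpiA livers. Both ACLF groups were separate from normal livers and overlapped each other. Glul relative to Cps1, the first enzyme of the periportal urea cycle, was 0.0621 to 0.0775 in normal, 0.459 to 0.690 in Empty and 0.133 to 0.321 in UTOpiA livers, and here the 3 groups did not overlap. Glul relative to Gls2, the periportal glutaminase, was 1.13 to 1.27 in normal, 7.22 to 26.8 in Empty and 3.17 to 11.8 in UTOpiA livers. Relative to Cyp2e1, a pericentral gene, the separation was not complete: Glul to Cyp2e1 was 0.141 to 0.207 in normal, 0.343 to 1.11 in Empty and 0.205 to 0.588 in UTOpiA livers, where UTOpiA overlapped normal. Oat to Cyp2e1 was 0.262 to 0.279 in normal, 0.120 to 0.211 in Empty and 0.0673 to 0.257 in UTOpiA livers, with both ACLF groups below normal.

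**Figure D3:**
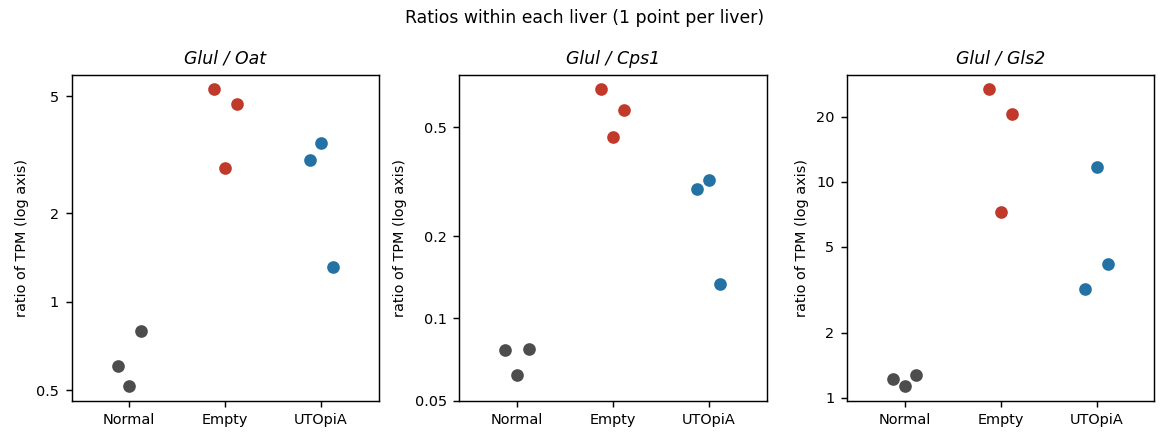
TPM of Glul divided by that of Oat, Cps1 or Gls2 in the same liver (vertical log axes), 1 point per liver, for the 3 groups. All ACLF livers lie above the normal livers in each panel, and UTOpiA lies below Empty without overlap for Cps1 only.

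Other genes of the pericentral zone moved in both directions. Of 16 tested, 3 rose and 7 fell in Empty livers, beside 20.7% and 11.1% of all genes, with a median log2 fold change of -0.94. The share of risers was near that of all genes. Slc1a4, a transporter of neutral amino acids, rose 7.57-fold, and Slc13a3, a dicarboxylate transporter, rose 5.21-fold (edgeR adjusted p = 0.0130 and 0.00661). Cyp1a2, a cytochrome P450 of drug metabolism, fell 5.79-fold and Rgn, which acts in vitamin C synthesis, fell 3.39-fold (edgeR adjusted p = 0.0260 and 0.0237). The Cyp1a2 call was lost with no filter on counts and without Normal replicate 1 or Empty replicate 1, and the Rgn call without replicate 1 or 3 of either group; both were lost with the replicate number as a block. Cyp2e1, the ethanol-oxidising cytochrome P450, was at 1119, 1081 and 784 TPM in normal livers and at 427, 1414 and 478 TPM in Empty livers, and its log2 fold change of -0.87 did not pass the test (edgeR adjusted p = 0.211). Without Empty replicate 2, the liver with the highest level, it was -1.67 and was called. In UTOpiA livers 3 of the 16 rose and 2 fell, beside 18.2% and 6.81% of all genes, with a median of -0.23. The risers were again Slc1a4, Slc13a3 and Nkd1, and the genes that fell were Aldh1a1 and Cldn14. The Slc1a4 call in UTOpiA livers was lost without Normal replicate 2. The Cldn14 call was lost with limma and without any 1 of the normal livers, Empty replicate 3 or UTOpiA replicate 1 or 2. The balance in Empty livers depended on the scale: limma on log2(TPM + 0.1) called 5 of the list higher and 4 lower, and limma on log2(TPM + 1) also called 4 lower. Between UTOpiA and Empty livers edgeR with all 9 libraries called no gene of the list. Without Empty replicate 2 it called Cyp27a1, a bile acid synthesis enzyme, higher, and DESeq2 with all libraries called Cyp1a2 higher.

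Periportal genes had a negative median change in both ACLF groups. Of 20 tested in Empty livers, 13 fell and 1 rose, beside 11.1% and 20.7% of all genes, with a median log2 fold change of -1.52. In UTOpiA livers 7 fell and 1 rose, beside 6.81% and 18.2% of all genes, with a median of -1.04. Of those 7 calls, that of Ass1 was lost in 8 of 17 alternatives. Hal, which degrades histidine, fell 13.3-fold in Empty livers and Ass1, a urea cycle enzyme, fell 2.83-fold (edgeR adjusted p = 2.45e-04 and 0.00792). In UTOpiA livers Otc, another urea cycle enzyme, fell 6.30-fold (edgeR adjusted p = 0.0423), a call lost with no filter on counts, with the replicate block and without any 1 of the 6 normal and UTOpiA livers. The gene that rose in both was Pck1, the gluconeogenic enzyme, by 8.58-fold in Empty and 8.10-fold in UTOpiA livers (edgeR adjusted p = 0.00181 and 0.00287). Hepatocyte markers, a list that shares Cps1 and Cyp2e1 with the zonated lists, fell as well. In Empty livers 6 of 12 fell and in UTOpiA livers 3 of 12, beside 11.1% and 6.81% of all genes. Their summed level was 170517 to 186923 TPM in normal, 44809.8 to 83090.4 TPM in Empty and 51995.1 to 79466.2 TPM in UTOpiA livers. On average albumin carried most of this sum in normal livers only, with means of 119226, 20100 and 23273 TPM in the 3 groups. Serpina1 (alpha-1 antitrypsin) had means of 7285, 10896 and 14009 TPM. The 12 markers had a median change of -1.02 (log2) in Empty and -0.68 in UTOpiA livers. Their part in the change of the zonated genes was not tested.

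**Figure D4:**
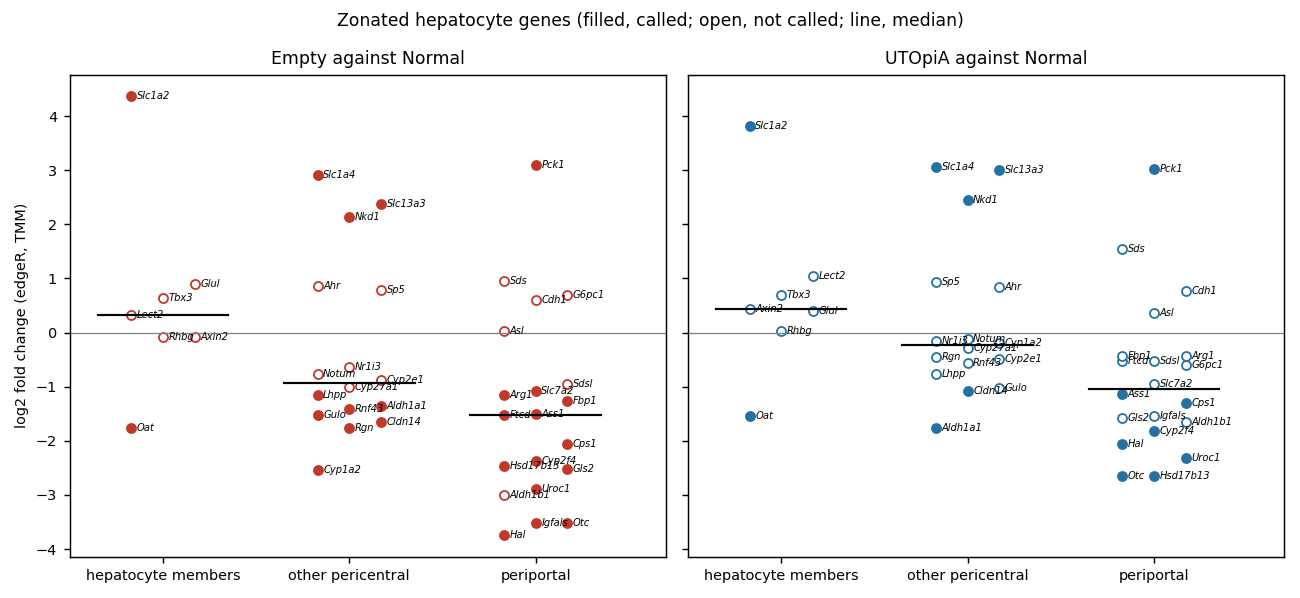
Log2 fold change from edgeR (vertical axis) of 7 of the 10 genes (Glul, Oat, Rhbg, Slc1a2, Lect2, Tbx3 and Axin2), of 16 other pericentral genes and of 20 periportal genes, for Empty (left) and UTOpiA (right) against normal livers; filled points were called and lines are medians. The periportal medians lie at -1.52 and -1.04, the other pericentral medians at -0.94 and -0.23.

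Around the 10 genes, the enzymes and carriers of glutamine, glutamate and ammonia moved in both directions, with 7 of 18 tested higher and 4 lower in Empty livers and 6 higher and 1 lower in UTOpiA livers. Slc1a1, Slc1a2, Slc1a5 and Slc38a1 passed the count filter only through their ACLF levels. Of the other 14, 3 were higher and 4 lower in Empty livers, beside 20.7% and 11.1% of all genes. In UTOpiA livers 2 were higher and 1 lower, beside 18.2% and 6.81% of all genes. The shares of risers among these 14 were near those of all genes. Glul, Oat, Rhbg and Slc1a2 are themselves in this list, and without them 6 of 14 rose and 3 fell in Empty livers. Those 6 include Slc1a1, Slc1a5 and Slc38a1, which the filter left little room to be lower, so the 6 are not evidence about the list. The count of lower genes in UTOpiA livers depended on the fit: it was 3 with DESeq2, with only the 6 libraries compared and without Empty replicate 2, and 2 with RLE scaling and without Empty replicate 1 or UTOpiA replicate 1. Gls2 was at 154, 134 and 128 TPM in normal livers and at 17.7, 67.2 and 18.4 TPM in Empty livers, a 5.74-fold decrease (edgeR adjusted p = 0.0101). In UTOpiA livers Gls2 was at 99.9, 32.1 and 39.6 TPM, lower than in every normal liver without passing the test (edgeR adjusted p = 0.0663), although 4 alternatives called it. Slc1a1, another glutamate transporter of the Slc1a2 family, was represented by 0, 1 and 0 reads in normal livers, 98, 119 and 209 in Empty livers and 20, 90 and 9 in UTOpiA livers. Prodh, which begins proline breakdown toward glutamate, fell 4.18-fold in Empty livers (edgeR adjusted p = 0.0119). Cholangiocyte markers were higher in the same livers, with 8 of 9 tested called in each ACLF group, 7 of which passed the count filter only through their ACLF levels, and with a summed level of 25.8 to 36.0 TPM in normal, 355 to 748 TPM in Empty and 154 to 478 TPM in UTOpiA livers, and their part in these changes was not tested.

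Several other Wnt ligands had almost no reads in normal livers. Of 19 ligand genes measured, 9 were tested and 6 were called higher in each ACLF group. Of the 9, 7 (Wnt2b, Wnt4, Wnt5a, Wnt5b, Wnt6, Wnt7a and Wnt7b) passed the count filter only through their ACLF levels, so that the filter itself left them little room to be lower, and their count is not evidence about the ligands as a group. Of Wnt2 and Wnt9b, which passed in the normal livers alone, Wnt9b was called, in UTOpiA livers. DESeq2, which took in 14 ligand genes, called 9 higher in Empty and 10 in UTOpiA livers. It called 4977 and 3994 of 20183 genes in either direction in these comparisons. The ligands it added had too few reads for the count filter of edgeR, so this count is not evidence about the ligands as a group either. Wnt5b had 0 reads in all normal livers and 17, 76 and 86 in Empty livers, and was at least 12.1-fold higher than a floor of 3 reads per library, and at least 9.47-fold higher in UTOpiA livers. Wnt7a had 0, 1 and 0 reads in normal livers, 65, 150 and 146 in Empty livers and 71, 131 and 42 in UTOpiA livers. Wnt4, named here after its values were seen, was at 0.0644, 0.202 and 0.279 TPM in normal livers, 3.89, 7.76 and 5.02 TPM in Empty livers and 9.85, 13.6 and 19.2 TPM in UTOpiA livers, where every UTOpiA liver was above every Empty liver. Its log2 difference between UTOpiA and Empty was 1.62 ± 0.42 SE, which edgeR did not call (adjusted p = 0.325). DESeq2, which called 125 genes between these groups where edgeR called 0, called Wnt4 higher in UTOpiA livers (log2 difference 1.60, adjusted p = 0.0290). Wnt9b, the endothelial ligand usually named beside Wnt2, was at 0.308, 0.362 and 0.333 TPM in normal livers and rose in UTOpiA livers with 3.64, 1.89 and 0.312 TPM (log2 fold change 2.14 ± 0.67 SE, edgeR adjusted p = 0.0305), where UTOpiA replicate 3 was at the normal level. This call was lost with limma, with the replicate block and without any 1 of the normal livers or UTOpiA replicate 1 or 2. In Empty livers it was at 0.967, 1.83 and 1.40 TPM (edgeR adjusted p = 0.0832), and DESeq2, edgeR with only the 6 libraries compared and edgeR without UTOpiA replicate 1 or 3 called it higher. Wls and Porcn, which are needed to secrete any Wnt, rose in both groups, Wls by 6.85-fold in Empty and 5.36-fold in UTOpiA livers (edgeR adjusted p = 5.95e-04 and 0.00156).

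Among secreted Wnt antagonists, 4 of 7 tested were called higher in each ACLF group: Dkk2, Dkk3, Sfrp1 and Frzb. Dkk2, Frzb and the uncalled Sost passed the count filter only through their ACLF levels. Of the 4 that passed in the normal livers alone, Dkk3 and Sfrp1 rose in both groups. Frzb, which binds Wnt proteins, rose by 5.53 on the log2 scale in Empty and 4.33 in UTOpiA livers (edgeR adjusted p = 2.58e-04 and 0.00109). Dkk2 was represented by 0, 0 and 1 reads in normal livers and by 101 to 367 reads in every ACLF liver. Notum, a deacylase that inactivates Wnt and is itself pericentral, was not called (log2 fold change -0.77 in Empty and -0.12 in UTOpiA livers, edgeR adjusted p = 0.410 and 0.906).

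Of 12 receptors and co-receptors tested, 3 rose and 3 fell in Empty livers, beside 20.7% and 11.1% of all genes, and 2 rose and 2 fell in UTOpiA livers, beside 18.2% and 6.81%, so that the shares of risers were near those of all genes. Without UTOpiA replicate 3 the UTOpiA risers numbered 4. Fzd2, Fzd3 and Ror2 passed the count filter only through their ACLF levels, and of the other 9 there were 2 risers in Empty and 1 in UTOpiA livers. Fzd2 was 24.2-fold higher in both groups (edgeR adjusted p = 5.86e-04 and 8.75e-04), while Fzd5 fell 4.69-fold in Empty and 2.86-fold in UTOpiA livers and the co-receptor Lrp5 fell 3.11-fold and 2.38-fold (edgeR adjusted p = 0.00149, 0.0113, 0.00109 and 0.00528). In UTOpiA livers limma on log2(TPM + 1) called neither Fzd5 nor Lrp5 lower, and Fzd5 was not called without Normal replicate 1. In the R-spondin group, Rnf43, a ligase that removes Wnt receptors from the membrane and is itself a Wnt target, fell 2.68-fold in Empty livers (edgeR adjusted p = 0.00141), a call that the limma fits of TPM did not make. In UTOpiA livers its log2 fold change was -0.57 (edgeR adjusted p = 0.0841). The other 3 tested genes of this group, Rspo1, Rspo3 and Lgr4, were not called. Rspo1 passed the count filter only through its ACLF levels. It was called higher in Empty livers in both limma fits, with only the 6 libraries compared and without UTOpiA replicate 1. Lgr6, which had too few reads for the fit of all 9 libraries, was called higher in both ACLF groups without Normal replicate 3 and in UTOpiA livers without UTOpiA replicate 1. Lgr4, the R-spondin receptor abundant in hepatocytes, was at 25.9 to 28.1 TPM in normal livers, above every Lgr5 level, and was not called in either ACLF group in any fit. In Empty livers its log2 fold change of -0.59 passed the p threshold and not the 2-fold threshold (edgeR adjusted p = 0.0256).

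None of 10 tested genes of the beta-catenin destruction complex, Axin2 among them, was called in edgeR against normal livers, and none was called by DESeq2 or limma. Ctnnb1, which encodes beta-catenin, had log2 fold changes of 0.09 and 0.23 (edgeR adjusted p = 0.638 and 0.237), and Tcf7l2, the main hepatocyte TCF factor, had -0.17 and 0.03 (edgeR adjusted p = 0.548 and 0.922). Of 10 genes for beta-catenin and its nuclear partners, Tcf7l1 fell in Empty livers and Pygo1, with 2, 0 and 0 reads in normal livers, was called higher in both groups, having passed the count filter only through its ACLF levels. The Tcf7l1 call was lost with limma. The Pygo1 call in Empty livers was lost without Normal replicate 2, and that in UTOpiA livers in 9 of the 14 alternatives that tested it. Bcl9, a partner of beta-catenin, was called higher in both groups by limma on log2(TPM + 0.1) and with upper-quartile scaling, and without Empty replicate 2 or UTOpiA replicate 1 or 3 in 1 group. Lef1 was called higher in UTOpiA livers without UTOpiA replicate 2. Among 10 Wnt feedback targets tested, Nkd1 and Nkd2 rose in both groups and Rnf43 fell in Empty livers. These counts and those of the nuclear partners were near or below the shares of all genes. Those shares were 20.7% higher and 11.1% lower in Empty livers and 18.2% and 6.81% in UTOpiA livers. The Nkd2 calls were lost with limma on log2(TPM + 1), and in UTOpiA livers also without Normal replicate 1 or UTOpiA replicate 2. Limma on log2(TPM + 0.1) called 4 of the targets higher and none lower in Empty livers, Myc and Sp5 being added, and Myc was also called by limma on log2(TPM + 1), by DESeq2 and without Normal or Empty replicate 1. Nkd1, an antagonist induced by Wnt, was at 1.52, 0.874 and 1.04 TPM in normal livers, 5.65, 9.05 and 6.91 TPM in Empty livers and 7.50, 8.23 and 7.60 TPM in UTOpiA livers, with log2 fold changes of 2.13 and 2.46 (edgeR adjusted p = 4.03e-04 and 3.32e-04). Nkd1 was thus above normal in all 6 ACLF livers, where Axin2 was not called and Lgr5 was scarcely detected. Stellate and fibroblast markers rose in 7 of 10 tested genes in each ACLF group, with a summed level of 145 to 159 TPM in normal, 959 to 1146 TPM in Empty and 515 to 1104 TPM in UTOpiA livers, and macrophage markers rose in 8 of 10 and 7 of 10. Their part in the Wnt pathway changes was not tested.

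**Figure D5:**
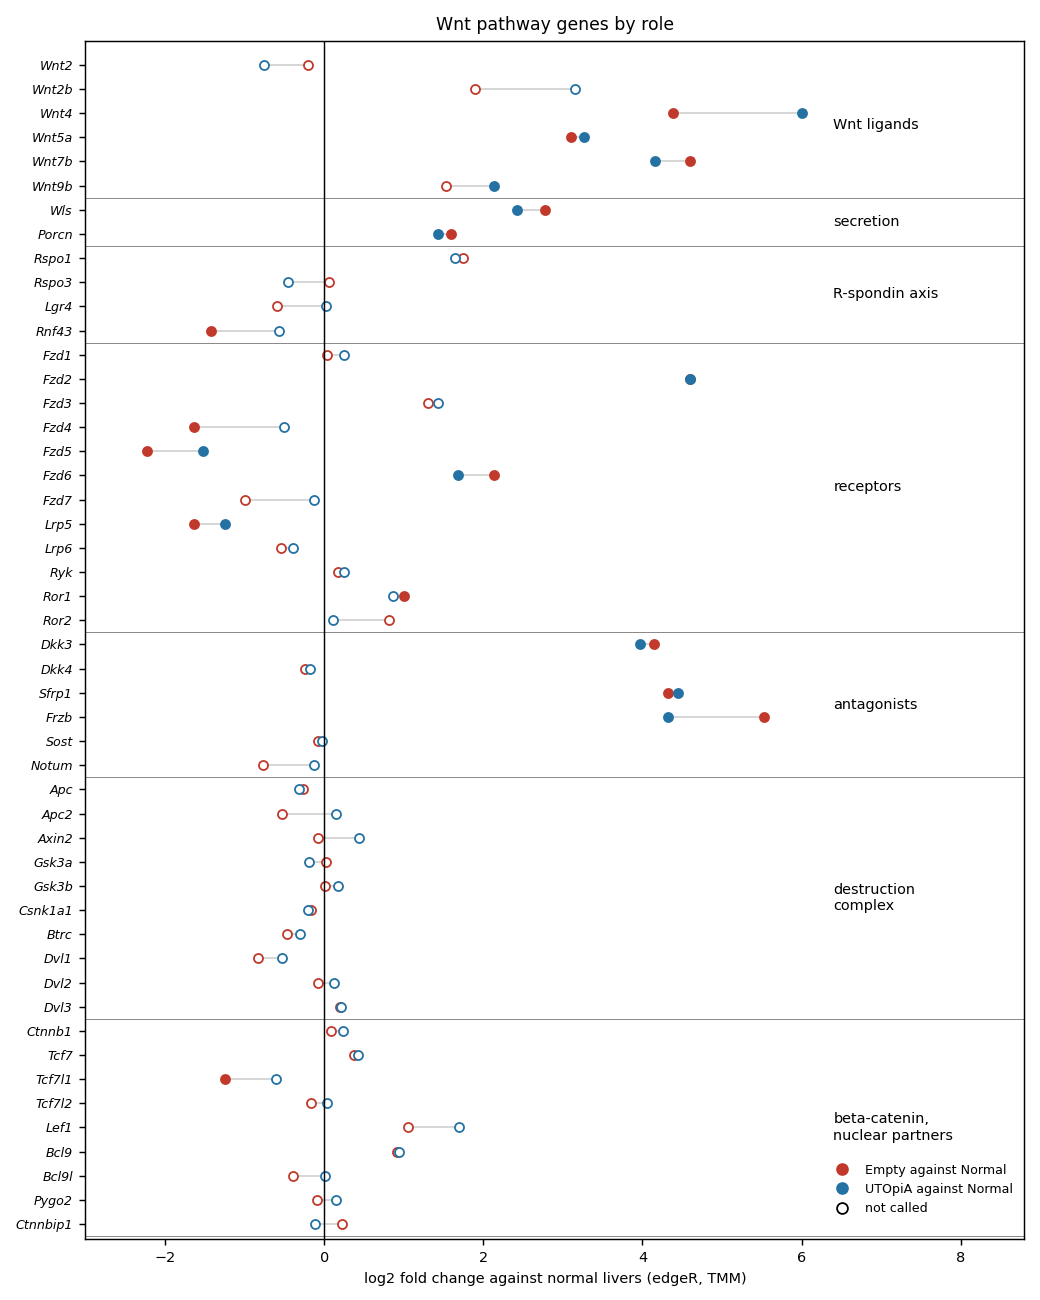
Log2 fold change from edgeR (horizontal axis) against normal livers for 49 Wnt pathway genes grouped by role, in Empty (red) and UTOpiA (blue) livers; filled points were called. Wnt5b, Wnt6, Wnt7a, Dkk2 and Pygo1, with 3 reads or fewer in all normal livers together, are left out; Frzb holds the highest value in Empty livers and Wnt4 in UTOpiA livers, and the destruction complex has no filled point.

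The genes most like each of the 10 over the 9 livers were found by the root mean square difference of mean-centred log2 CPM among 12996 genes. Closest to Glul were Stom, Sema4b and Fam177a1, with differences of 0.17, 0.17 and 0.18. Oat was closest to Acy1, Gpt2 and Agmo (0.21, 0.22 and 0.22), and Slc1a2 to Prkar1b, Nebl and Ttll10 (0.30, 0.52 and 0.65). Axin2 lay nearest to Aifm2 (0.19), Rhbg to Rhobtb1 (0.18), Lect2 to Nectin2 (0.26), Tbx3 to Cyp4a1 (0.47), Rspo3 to Tmem200b (0.21) and Wnt2 to Chst15 (0.27). None of the 9 genes had another of the 9 among its 3 nearest genes. The closest pair within the set was Rhbg and Lect2 at 0.50. These values describe 9 livers of 3 groups and share the depth of each library.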

How the data were processed

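Poly(A) RNA from 9 rat livers (3 Normal, 3 Empty, 3 UTOpiA) was measured. The authors deposited a table of raw counts per gene and a table of TPM, both over 32883 rat Ensembl genes. Per the labels, reads were trimmed with Trimmomatic, aligned with HISAT2 to rn6 and counted with featureCounts. The study's methods name another trimmer and a mouse build, and the strand setting is not given in the sources used here. Doses, times and ages come from the study's methods.

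From the deposited counts, edgeR 4.0.16 (TMM, filterByExpr, robust quasi-likelihood, 1 fit of all 9 libraries, R 4.3.3) gave log2 fold changes, SE and 95% intervals. TPM values were used for levels, exact permutation tests and limma 3.58.1 fits of genes with a mean TPM of at least 1. DESeq2 1.42.0, other scalings, no filter, the 6 libraries compared, the replicate number as a block and leaving out each library were alternatives. The fits were tested on simulated data. The p-values of the fits set a difference against the spread between livers within groups. In edgeR that spread was estimated from all 9 libraries together. Counting limits cover counting error only.

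The 10 genes and the lists were chosen with earlier results of these data known. From each list, genes called with the largest changes and a mean of at least 1 CPM were named, up to 2 in each direction, besides fixed anchors. Of the list genes, Pecam1, Znrf3, Axin1 and Aldh4a1 were not matched to a row and were not analysed here.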

Additional observations from a re-analysis of the deposited data

How the results depend on the processing

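The calls of Slc1a2 and Oat against normal livers kept their direction and their side of the threshold under all alternatives run. The count of genes called higher in Empty against Normal went from 1 to 2, by Glul, with limma on TPM at either pseudocount (1 or 0.1), with upper-quartile scaling and with no fold-change threshold, and ranged from 1 to 2 when single libraries were left out (2 without Empty replicate 3). In UTOpiA against Normal it was 2, by Lect2, with DESeq2, and ranged from 1 to 2 without single libraries (2 without Empty replicate 2). Some log2 fold changes that were not called changed sign, and the cause was not tested. For Empty against Normal, Axin2 was 0.30 and 0.35 in the limma fits and 0.0546 with upper-quartile scaling, Rhbg 0.23, 0.25 and 0.000344, and Wnt2 0.16 and 0.20 in the limma fits. Tbx3 in UTOpiA against Empty was -0.0108 with upper-quartile scaling. With CPM in place of TPM, the exact permutation p was 1 for Axin2 and for Rhbg and 0.8 for Wnt2 in Empty against Normal, and 1 for Tbx3, 0.5 for Oat and 0.8 for Rhbg in UTOpiA against Empty, each with the opposite sign. Leaving out single libraries moved the log2 fold change in Empty against Normal from -0.39 to 0.22 for Axin2, -0.14 to 1.14 for Tbx3, -0.70 to 0.22 for Rhbg, -0.20 to 0.52 for Lect2, -0.18 to 0.23 for Rspo3 and -0.81 to 0.0401 for Wnt2. In UTOpiA against Normal it moved from -0.18 to 1.02 for Tbx3 and -0.14 to 0.13 for Rhbg. In UTOpiA against Empty it moved from -0.83 to 0.84 for Tbx3, -0.0432 to 0.65 for Oat, -0.21 to 0.72 for Rhbg and -1.04 to 0.0502 for Wnt2.

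The labels give the groups the same replicate numbers without saying that a number marks a shared animal or day, and deviations of same-numbered livers correlated at -0.17 to 0.06. With the replicate number as a block, edgeR called 1 of the genes higher and 1 lower against normal in each ACLF group and 0 between UTOpiA and Empty, as without it. Over all genes the block gave 4278 in place of 4476 calls for Empty against Normal and 3241 in place of 3522 for UTOpiA against Normal. TPM fits moved the median of all genes by 0.39 and 0.46 in Empty against Normal. Limma on TPM called 4 rather than 7 of the other pericentral genes lower in Empty livers and, at a pseudocount of 0.1, 5 rather than 3 higher. For most other genes named, the alternatives that ended a call stand beside the gene. Further calls counted within the lists were lost, among them Ror1 and Gata4 in Empty livers, in 7 and 6 of 17 alternatives. In UTOpiA livers the Slc38a1 call was lost in 4 of 16 and the Slc1a5 call in 3 of 17. Lgr5 was tested only in the fits without the filter, in DESeq2 and in some fits without a library, and was not called in any. Few reads limit Lgr5, Wnt2 and the normal level of Slc1a2.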

Other observations

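Among the Empty livers, replicate 2 had the highest TPM of the 3 for 6 of the 10 genes (Glul, Oat, Lect2, Rhbg, Wnt2 and Lgr5) and the lowest for 3 (Tbx3, Axin2 and Rspo3), while replicate 1 was highest for 3 and lowest for 4 and replicate 3 highest for 1 and lowest for 3. Of 20 periportal genes replicate 2 was the highest in 13, the middle in 3 and the lowest in 4, beside 4 and 3 genes in which replicates 1 and 3 were highest. Of genes chosen after their values were seen, Gls2 was at 67.2 TPM beside 17.7 and 18.4 TPM, Cyp2e1 at 1414 TPM beside 427 and 478 TPM, and Hal at 7.52 TPM beside 16.3 and 9.01 TPM. Albumin took 3.91% of its counts, and 1.65% and 1.58% in the other Empty livers. These are 3 livers of 1 group, and the difference was not tested.

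Neutrophil markers were called higher in 7 of 7 genes tested in each ACLF group, but 6 of these (Ncf1 being the exception) passed the count filter only through their ACLF levels, and the Fcnb call was lost in 5 of 17 alternatives in each group, without any 1 normal liver or some single ACLF livers. The list had a summed level of 4.50 to 8.09 TPM in normal, 202 to 1172 TPM in Empty and 189 to 560.2 TPM in UTOpiA livers. Cxcr1 and Ltf of that list had no reads in any liver.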
